A study of Mus musculus with 6 samples.

Results

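The tumour necrosis factor (TNF) superfamily ligands and receptors were examined in *Clk4*-cKO mouse hearts that had received AAV NEXN-S437E or AAV NEXN-WT. The members were every probe of the array whose annotated symbol starts with *Tnfsf* or *Tnfrsf* and a number, together with the probes of *Tnf*, *Lta*, *Ltb*, *Ltbr*, *Fas*, *Fasl*, *Cd40*, *Cd40lg*, *Cd27*, *Cd70*, *Eda*, *Edar*, *Eda2r* and *Ngfr*. This gave 77 probes of 45 genes among 56605 probes and 27307 gene symbols, of which 17 genes encode ligands and 27 encode receptors. The remaining gene was *Tnfsf13os*, an antisense transcript, and no probe carried the symbol *Tnfsf13* itself.

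All mice were male C57BL/6J, and each group held 3 animals with 1 array per animal. The NEXN-WT group received wild-type nexilin, an actin-binding protein of the cardiac Z-disc, and the NEXN-S437E group received nexilin with a glutamate at the phosphorylated serine, which mimics phosphorylation. Both groups carried the same deletion: *Clk4* alleles flanked by loxP sites were excised after tamoxifen by α-MHC-MerCreMer, a Cre driven by a cardiomyocyte promoter, so other heart cells keep the gene. The vectors were AAV9, in which a CMV promoter, not restricted to cardiomyocytes, drives *Nexn* together with GFP. Hearts with intact *Clk4* and hearts without a vector were not analysed here.

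TNF superfamily ligands are mostly trimeric membrane proteins, many of them made by lymphocytes and myeloid cells, and several are released by proteases. Their receptors either recruit TRAF adaptors that switch on NF-kB, or carry a death domain that can start apoptosis, and decoy receptors bind a ligand without passing the signal on. In the heart, TNF, TRAIL, Fas and TWEAK with its receptor Fn14 have been studied for their roles in inflammation, cell death, fibrosis and remodelling.

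The values are array intensities on a log2 scale, scaled so that 0 is the 75th percentile of each array's signal over the probes detected on all 6 arrays. Agilent's software flags each spot as well above its background or not, and a probe was called detected on an array that carried the flag. A probe was tested where it was detected on all 3 arrays of a group. Under this rule 33 member probes of 27 genes were tested, out of 22998 probes of 13747 genes. Of the 77 member probes, 25 were detected on all 6 arrays and 36 on none. Levels of different probes are not comparable, so groups were compared 1 probe at a time. The exceptions are sums over marker lists, in which brighter probes weigh more.

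All 3 NEXN-WT arrays and NEXN-S437E replicate 1 lay in row 1 of the slide and the other NEXN-S437E arrays in row 2. A fit with the slide row as a block therefore sets that 1 NEXN-S437E array against NEXN-WT, and its p-values assume that the lone array varies like the others. The arrays differed among themselves. The share of detected spots ran from 41.9% to 47.8%, and no spot was saturated. NEXN-WT replicate 1 stood apart, at a mean absolute distance of 0.37 to 0.43 (log2) from the other NEXN-WT arrays, against 0.25 between those. The *Nexn* values are those of 1 of its 2 probes, which cannot tell the wild-type from the S437E transcript. That probe read 1.36, 0.76 and 0.64 in NEXN-WT and 0.53, 0.79 and 1.27 in NEXN-S437E, and the groups overlapped. The *Clk4* values, from 1 of its 3 probes, also overlapped between the groups, with a difference of 0.05 (SE 0.18). Since both groups carry the deletion, the *Clk4* values do not check the labels. In bulk tissue, fewer cells of a type and less RNA per cell cannot be told apart.

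Of the 17 ligand genes, 7 had a tested probe (41.2%), beside 50.3% of all genes on the array. The 9 ligands *Fasl* (the ligand of Fas), *Cd40lg*, *Cd70*, *Lta*, *Tnfsf11* (RANKL), *Tnfsf14* (LIGHT), *Tnfsf15* (TL1A), *Tnfsf18* (GITRL) and *Tnfsf4* (OX40L) were detected on no array, and *Tnfsf8* (CD30L) was detected on 1 NEXN-WT array. Of the 27 receptor genes, 19 had a tested probe (70.4%). *Cd27*, *Edar*, *Tnfrsf13c* (the BAFF receptor), *Tnfrsf18* (GITR), *Tnfrsf26* and *Tnfrsf8* (CD30) were detected on no array. *Tnfrsf9* (4-1BB) was detected on 2 NEXN-WT and 1 NEXN-S437E array, and *Tnfrsf11b* (osteoprotegerin, a decoy for RANKL) on 1 NEXN-WT array. For the 15 genes detected on no array the arrays give only an upper limit, and no difference was tested for any of the 18.

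Counted as ligand and receptor pairs, 10 of 29 known pairs had both partners tested, 11 had the receptor alone, 4 the ligand alone and 4 neither. The receptors Fas, CD40 and OX40 thus had measurable transcripts while the probes of their ligands were not detected. *Tnf* with its receptors *Tnfrsf1a* and *Tnfrsf1b*, *Ltb* with *Ltbr*, *Tnfsf10* with *Tnfrsf10b*, and *Tnfsf12* with *Tnfrsf12a* had both partners tested.

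Among the tested members the main difference was in *Ltb*, which encodes lymphotoxin β, the membrane anchor of the lymphotoxin heterotrimer that lymphocytes present to the lymphotoxin β receptor. Its probe, A_51_P302358, read -2.32, -2.27 and -2.62 in NEXN-WT and -4.47, -5.15 and -4.64 in NEXN-S437E. It was detected on all 6 arrays, and the highest NEXN-S437E array lay well under the lowest NEXN-WT array. *Ltb* fell by 2.35 on the log2 scale (SE 0.21), which is 5.09-fold, from a mean of -2.40 ± 0.19 to -4.75 ± 0.35 (SD, n = 3 each; limma adjusted p = 0.0107). After normexp background correction the difference was -1.22. It was the single member of 33 past the adjusted threshold of 0.05, which 0.148% of all 22998 tested probes passed in either direction.

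**Figure D1:**
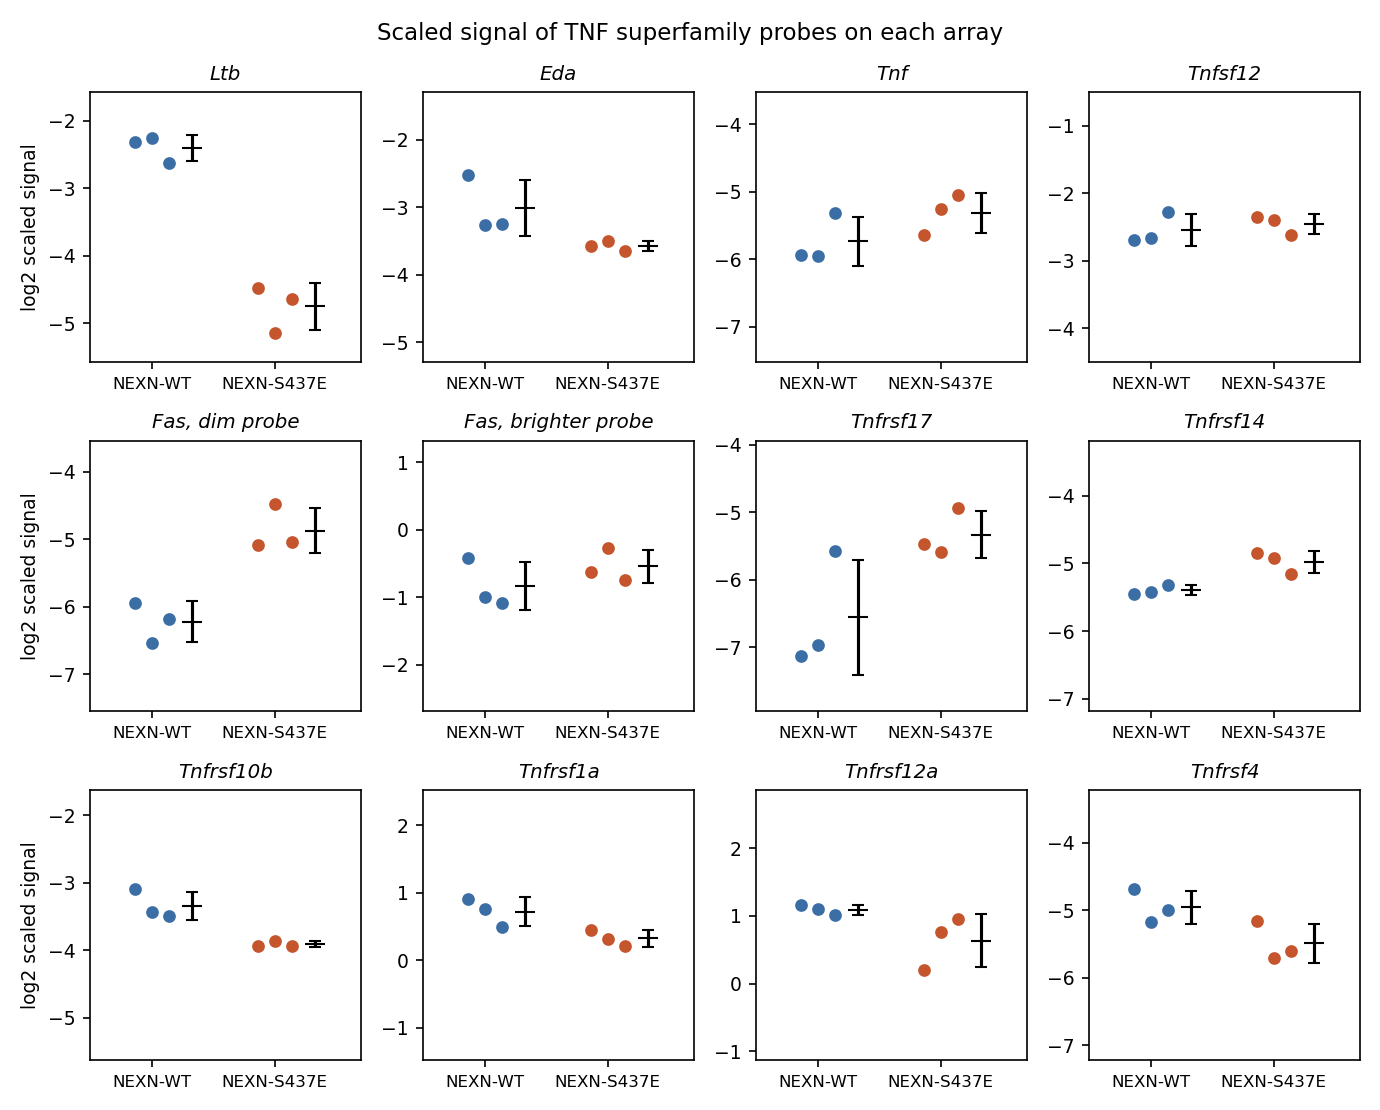
Scaled signal (log2, vertical axis) of 12 member probes on each of the 6 arrays, with NEXN-WT in blue, NEXN-S437E in orange and the mean with its SD in black beside each group; each panel spans 4 log2 units. The 3 NEXN-S437E values of *Ltb* sit between -5.15 and -4.47, all below the NEXN-WT values, while those of *Tnf*, *Tnfsf12* and the brighter *Fas* probe overlap between the groups.

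The *Ltb* probe lies at chr17:35333097-35333156 on the plus strand of mm9, the build of the array's coordinates. The bases before the annotated start of *Ltb* are shown because they hold a match to the NF-kB consensus, the factor that TNF superfamily receptors switch on and one of which *Ltb* is itself a known target. The first line gives the first 30 of the 60 bases of the probe as deposited. The second gives the 250 bases before the start in RefSeq (GRCm38.p6, chr17:35194257-35194506, plus strand), with the match in capitals.

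Ltb probe: atctgtattcattcctggaggatcgactga
Ltb promoter: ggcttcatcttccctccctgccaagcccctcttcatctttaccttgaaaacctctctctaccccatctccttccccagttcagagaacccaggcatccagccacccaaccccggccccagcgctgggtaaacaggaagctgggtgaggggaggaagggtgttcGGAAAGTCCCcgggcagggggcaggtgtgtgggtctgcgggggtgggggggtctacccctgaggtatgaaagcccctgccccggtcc

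The match reads GGGACTTTCC on the opposite strand and starts 87 bases before the annotated start. On either strand the NF-kB consensus was found in 4 of the 38 promoters listed for 34 member genes (10.5%) and in 2382 of all 32851 promoters of the same length (7.25%). The other 3 member genes were *Tnfrsf25*, *Tnfrsf8* and *Tnfrsf9*. Such matches describe the letters in these windows and no binding was measured.

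Of the neighbours of *Ltb* in the lymphotoxin and TNF cluster, *Tnf* was tested and *Lta* was not. The *Tnf* probe averaged -5.73 in NEXN-WT, near the lowest detected levels of the NEXN-S437E arrays (-6.14 to -5.73). A decrease as large as that of *Ltb* could not have been measured on that probe. *Tnf*, the founding cytokine of the family, has its tested probe A_55_P2740937 3.81 kb away on chromosome 17. It read -5.94, -5.95 and -5.31 in NEXN-WT and -5.64, -5.25 and -5.05 in NEXN-S437E. The difference was 0.42 (SE 0.23, 95% interval -0.12 to 0.96), in the direction opposite to that of *Ltb*, the groups overlapped, and the probe was not detected on 1 NEXN-S437E array (limma adjusted p = 0.394). The difference was 0.41 with normexp, 0.67 with array weights, 0.63 without NEXN-WT replicate 3 and 0.58 without NEXN-S437E replicate 1, each with a limma unadjusted p under the threshold (0.0292, 0.00535, 0.0196 and 0.04997). It was 0.095 with the slide row as a block. Probes near background sat higher in NEXN-S437E after scaling, with a median difference of 0.20 over all probes without the filter. The other *Tnf* probe was detected on no array. *Lta*, which encodes the soluble partner of lymphotoxin β, lies a further 3.25 kb along and was detected on no array.

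*Eda*, which encodes ectodysplasin, a ligand of skin appendage development, was the other ligand past the unadjusted threshold of p under 0.05. Its probe read -2.53, -3.27 and -3.24 in NEXN-WT and -3.58, -3.50 and -3.65 in NEXN-S437E. The groups did not overlap, and NEXN-WT replicate 1 was the highest array. The difference was -0.56 (SE 0.22, limma unadjusted p = 0.0334, adjusted p = 0.268). It was -0.32 without that array, and the unadjusted p was above 0.05 in 7 of 18 alternatives, among them each NEXN-S437E array left out (0.0582 to 0.0871) and the slide row as a block (0.135).

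The remaining ligands showed no difference past either threshold. *Tnfsf10*, which encodes the death ligand TRAIL, read -2.61, -2.87 and -2.47 in NEXN-WT and -3.11, -2.82 and -2.48 in NEXN-S437E on its brighter probe. The groups overlapped, and the gene differed by -0.15 (95% interval -0.62 to 0.31) on its brighter probe and by 0.15 (-0.33 to 0.63) on the other. *Tnfsf12*, which encodes TWEAK, read -2.70, -2.67 and -2.28 in NEXN-WT and -2.35, -2.40 and -2.62 in NEXN-S437E. These values overlapped, with a difference of 0.09 (-0.30 to 0.48). *Tnfsf13b*, which encodes the B cell survival factor BAFF, read -6.14, -6.12 and -5.63 in NEXN-WT and -5.49, -5.83 and -6.03 in NEXN-S437E. The spread within each group was wider than the difference of 0.18 (-0.30 to 0.66), and *Tnfsf9* (4-1BBL) differed by 0.30 (-0.14 to 0.74). All 4 overlapped between the groups, and these intervals include no 2-fold change. The antisense transcript *Tnfsf13os* differed by 0.54 (-0.11 to 1.20), with no overlap between the groups. Its probe and that of *Tnfsf12* lie 4 kb apart on chromosome 11.

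Over the ligands, 2 of the 8 tested probes were lower at the unadjusted threshold and 0 higher, against 8.57% and 7.84% of all tested probes, and their median difference was 0.12. The receptors had a median of -0.32 over 24 probes, with 15 negative and 9 positive differences. Over all 22998 tested probes the median was 0.01, with 11209 negative differences. The range of the receptors, -0.57 to 1.35, held no 2-fold decrease.

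**Figure D2:**
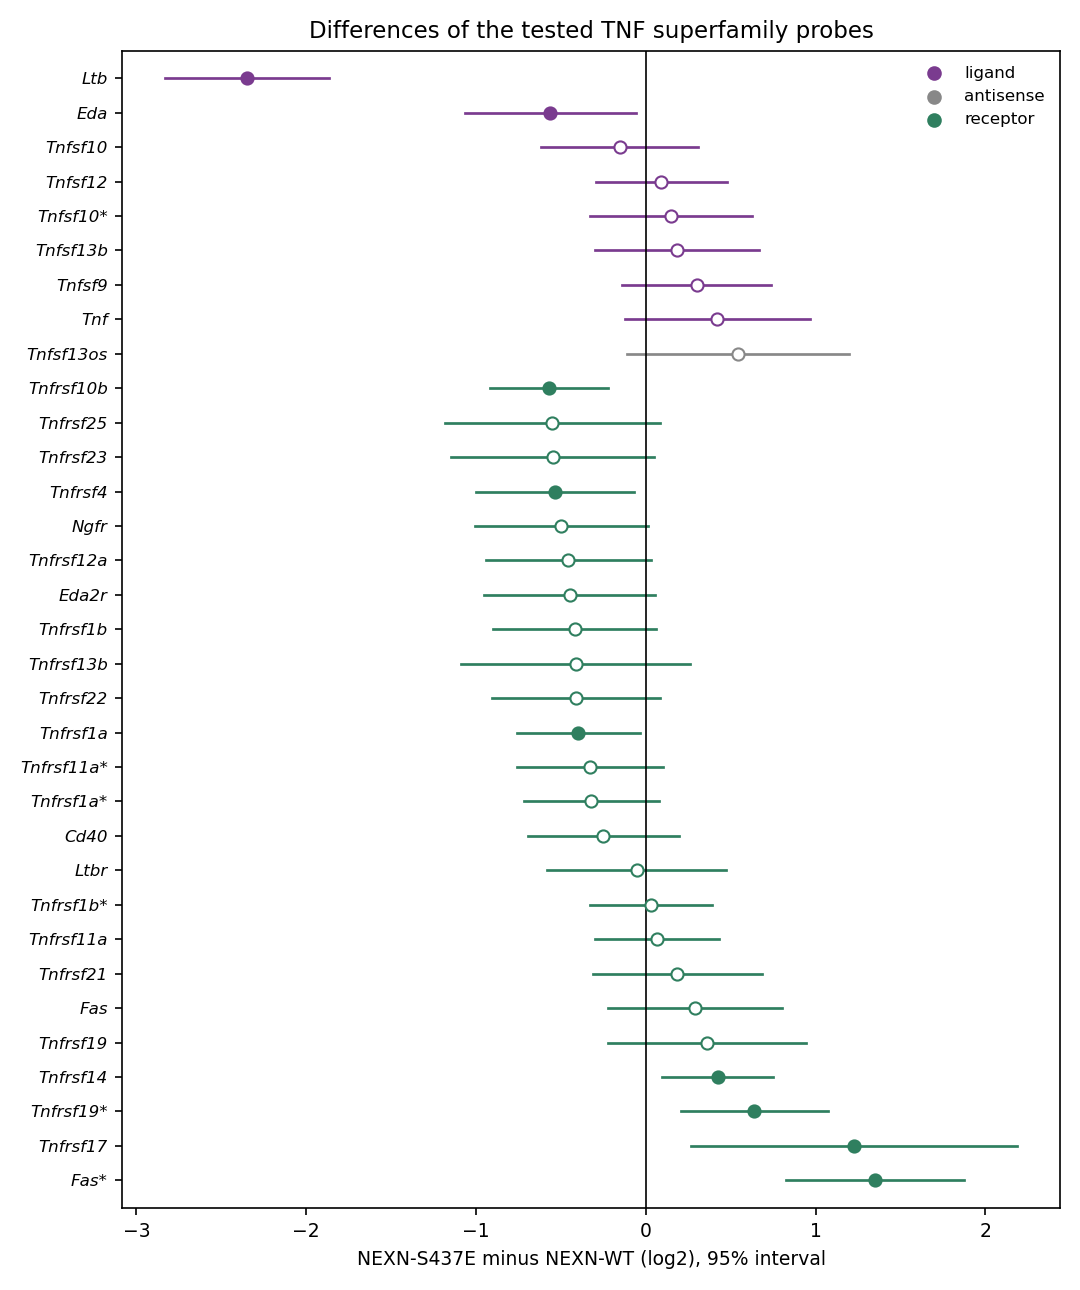
Difference between the groups (NEXN-S437E minus NEXN-WT, log2, horizontal axis) with its 95% interval from limma for the 33 tested member probes, by role; filled points have an unadjusted p under 0.05, and an asterisk marks a second, dimmer probe of a gene. *Ltb* stands at -2.35, 13 of the 19 receptor genes have a negative difference on their brightest tested probe, and the second *Fas* probe and *Tnfrsf17* lie above 1.

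Of the receptors that bind TNF, *Tnfrsf1a* was lower and *Tnfrsf1b* was not past the threshold. *Tnfrsf1a* encodes the death domain receptor TNFR1. Its brighter probe read 0.91, 0.75 and 0.50 in NEXN-WT and 0.45, 0.32 and 0.21 in NEXN-S437E, with no overlap. The difference was -0.40 (SE 0.16, limma unadjusted p = 0.0366, adjusted p = 0.277), and its second probe, 922 bases away, differed by -0.32 (95% interval -0.71 to 0.08). *Tnfrsf1b*, which encodes TNFR2, read -2.73, -3.27 and -3.28 in NEXN-WT and -3.44, -3.33 and -3.78 in NEXN-S437E on its brighter probe. The groups did not overlap, and NEXN-WT replicate 1 was the highest array. The difference was -0.42 (SE 0.20, limma adjusted p = 0.351), and 0.03 on the second probe. On the brighter probe it was -0.24 without NEXN-WT replicate 1, -0.09 with normexp and -0.37 with array weights (unadjusted p = 0.0473). The *Tnfrsf1a* difference was -0.30 (unadjusted p = 0.0799) without NEXN-WT replicate 1, and the call was also lost without NEXN-WT replicate 2 (0.0890), NEXN-S437E replicate 2 (0.0875) or 3 (0.127), with the slide row as a block (0.256), with the all-probe percentile (0.0696) and with no filter on dim probes (0.0669).

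Of the receptors of TRAIL, *Tnfrsf10b* was lower at the unadjusted threshold and the decoy receptors were not. *Tnfrsf10b* encodes the death receptor of TRAIL. Its probe read -3.10, -3.44 and -3.49 in NEXN-WT and -3.94, -3.86 and -3.94 in NEXN-S437E. The NEXN-S437E hearts lay close together and below every NEXN-WT heart, and the difference was -0.57 (SE 0.15, limma unadjusted p = 0.00581, adjusted p = 0.170). After normexp background correction it was -0.18 (unadjusted p = 0.173). *Tnfrsf22* and *Tnfrsf23*, neighbouring genes for decoy receptors of TRAIL in the mouse, did not pass a threshold. *Tnfrsf23* differed by -0.55 (95% interval -1.15 to 0.05). *Tnfrsf22* was not detected in NEXN-S437E, which leaves only an upper limit there, and the interval of its difference included 0 (-0.91 to 0.09).

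*Fas*, the receptor of Fas ligand, was tested on a pair of probes that differ in detection. The probe A_52_P73385 read -5.94, -6.54 and -6.18 in NEXN-WT and -5.08, -4.48 and -5.05 in NEXN-S437E. The groups did not overlap, but the probe was detected on 1 of the 3 NEXN-WT arrays. The measured difference was 1.35 (SE 0.22, limma unadjusted p = 0.000443, adjusted p = 0.102), against NEXN-WT arrays of which 2 give only an upper limit. With normexp it was 0.64, under 2-fold. The brighter probe, A_55_P2091676, was detected on all 6 arrays and read -0.42, -0.99 and -1.08 in NEXN-WT and -0.62, -0.26 and -0.74 in NEXN-S437E. There the groups overlapped and the difference was 0.29 (SE 0.22, limma adjusted p = 0.516). Without NEXN-WT replicate 1 it was 0.50 (unadjusted p = 0.0268), and with array weights 0.39 (unadjusted p = 0.0435). The dim probe passed the filter through the NEXN-S437E arrays alone, so its difference is one that the filter favours and is given as a description.

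The 3 *Fas* probes are shown because they report different stretches of sequence. The probes on chromosome 19 lie 18431 bases apart, at chr19:34383733-34383792 for the dim one and chr19:34402164-34402223 for the brighter one (mm9, plus strand). The remaining one, A_55_P2745482, carries the *Fas* symbol but is placed by the array's own coordinates on chr4:40555124-40555183 (minus strand), while RefSeq has *Fas* on chromosome 19. It was detected on 2 NEXN-WT and 1 NEXN-S437E array and was not tested. The first 30 bases of each are given.

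Fas dim probe: ggagagactctttaaaatgaaaacacaata
Fas brighter probe: gaagaccttccattgatggacagttctttt
Fas probe on chromosome 4: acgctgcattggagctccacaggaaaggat

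Receptors with a death domain were not higher on any brightest probe at the unadjusted threshold. Of the 7 such genes, *Edar* was not detected, 2 of the 6 tested (*Tnfrsf1a* and *Tnfrsf10b*) were lower and 0 were higher, against 10.1% and 7.8% of all genes. *Tnfrsf25* (DR3) differed by -0.55 (95% interval -1.18 to 0.08), *Ngfr* (the p75 neurotrophin receptor) by -0.50 (-1.01 to 0.01) and *Tnfrsf21* (DR6) by 0.19 (-0.31 to 0.68).

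The B cell receptors of BAFF included the remaining 2-fold call. *Tnfrsf17* encodes BCMA, a receptor of plasma cells. Its probe read -7.14, -6.97 and -5.57 in NEXN-WT and -5.47, -5.60 and -4.94 in NEXN-S437E. NEXN-WT replicate 3, the single NEXN-WT array on which it was detected, lay among the NEXN-S437E values. The measured difference was 1.23 (SE 0.41, limma unadjusted p = 0.0191, adjusted p = 0.228). It is a description, since 2 NEXN-WT arrays give only an upper limit and the probe passed the filter through NEXN-S437E alone. Without NEXN-WT replicate 1 or 2 or NEXN-S437E replicate 3 the unadjusted p was 0.0676, 0.0688 and 0.0596, with the slide row as a block 0.137 and with the methods' t-test 0.0835. With normexp the difference was 0.54, under 2-fold. *Tnfrsf13b*, which encodes TACI, differed by -0.41 (95% interval -1.09 to 0.26).

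*Tnfrsf12a*, which encodes Fn14, the receptor of TWEAK, read 1.16, 1.10 and 1.02 in NEXN-WT and 0.19, 0.76 and 0.96 in NEXN-S437E. The groups did not overlap, and NEXN-S437E replicate 1 was the lowest array. The difference of -0.46 (SE 0.21) missed the unadjusted threshold (limma unadjusted p = 0.0612, adjusted p = 0.326). It was -0.24 without NEXN-S437E replicate 1 (unadjusted p = 0.154) and -0.26 with array weights (0.119). Without NEXN-S437E replicate 3 it was -0.62 (0.0252), with normexp -0.47 (0.0208), and the unadjusted p was 0.0396 with the intensity trend. With the slide row as a block it was -0.90, a value that rests on NEXN-S437E replicate 1 alone.

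The gene of the lymphotoxin β receptor did not differ past a threshold. *Ltbr* read -1.36, -1.70 and -2.05 in NEXN-WT and -2.10, -1.55 and -1.62 in NEXN-S437E, and the groups overlapped. The difference was -0.05 (SE 0.23, 95% interval -0.58 to 0.47), and its sign changed with the scaling. *Tnfrsf14*, which encodes HVEM, the receptor of LIGHT, read -5.46, -5.43 and -5.31 in NEXN-WT and -4.85, -4.91 and -5.16 in NEXN-S437E. The groups did not overlap, and the difference was 0.42 (SE 0.14, limma unadjusted p = 0.0177, adjusted p = 0.225). The unadjusted p was just above 0.05 without NEXN-WT replicate 2 (0.0502), NEXN-S437E replicate 1 (0.0522) or NEXN-S437E replicate 2 (0.0642), with the intensity trend (0.0700) and with the replicate number as a block (0.0504).

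Of the costimulatory receptors, *Tnfrsf4* was lower and *Cd40* showed no difference past a threshold. *Tnfrsf4* encodes OX40, a receptor of activated T cells. It read -4.69, -5.17 and -4.99 in NEXN-WT and -5.16, -5.70 and -5.60 in NEXN-S437E. The groups overlapped by a narrow margin, and the difference was -0.54 (SE 0.20, limma unadjusted p = 0.0296, adjusted p = 0.258), with the opposite sign, 0.042, after normexp background correction. With the slide row as a block it was -0.21 (unadjusted p = 0.412), and the call was also lost without NEXN-WT replicate 1 (0.0806) or 3 (0.0534) or NEXN-S437E replicate 2 (0.104) or 3 (0.0907), with the methods' t-test (0.0709) and with the intensity trend (0.0581). *Cd40*, a receptor of antigen-presenting cells, read -5.43, -5.56 and -5.99 in NEXN-WT and -5.99, -6.06 and -5.68 in NEXN-S437E. The groups overlapped, with a difference of -0.25 (95% interval -0.70 to 0.20) and detection on 1 NEXN-S437E array.

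For the receptors not yet named, the interval of the brightest probe included 0. *Eda2r*, a receptor of ectodysplasin, differed by -0.45 (95% interval -0.95 to 0.06), with no overlap between the groups and detection on 1 NEXN-S437E array. *Tnfrsf11a* (RANK) differed by 0.06 (-0.30 to 0.43) and *Tnfrsf19* (TROY) by 0.36 (-0.22 to 0.95). The dimmer *Tnfrsf19* probe, which is named here after its values were seen, was higher by 0.64 (SE 0.19, limma unadjusted p = 0.00982, adjusted p = 0.194). The changes of the 2 *Tnfrsf19* probes were 0.28 apart, and the gap between them within an array overlapped between the groups.

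The counts of called members are small, and each is given beside the share over all probes. At 2-fold with an unadjusted p under 0.05, 2 of 33 member probes were higher (the dim *Fas* probe and *Tnfrsf17*), or 6.06%, against 0.53% of all probes, and 1 was lower (*Ltb*), or 3.03%, against 2.03%. Both probes that were higher had passed the filter through NEXN-S437E alone, and 0 were higher among probes detected on all 6 arrays, so the higher count is no result about the members. At the unadjusted p alone, 4 were higher (12.1%) against 7.84% and 5 were lower (15.2%) against 8.57%. Counted by the brightest tested probe of each gene, 2 of 27 genes were higher (7.41%) against 7.8% of genes and 5 were lower (18.5%) against 10.1%. The groups did not overlap, with NEXN-S437E below, on 8 member probes (24.2%) against 12.4% of all probes, and with NEXN-S437E above on 4 (12.1%) against 14.4%. Of the 33 probes, 8 were detected on all 3 arrays in 1 group only, and such probes pass the filter more readily where the groups differ.

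The genes that act with or after these receptors were examined in 5 lists of 76 genes, of which 66 were tested. At the unadjusted threshold 19 of the 66 were lower (28.8%) and 0 higher, against 10.1% and 7.8% of all genes, and their median difference was -0.23. The lists were chosen with earlier results of these data known, so these counts are given as a description. Of the 19, 5 were lower by 2-fold and 1, *Ccl5*, passed the adjusted threshold. The count was 11 without NEXN-S437E replicate 2 and 9 with the slide row as a block, with 0 higher in each, the last from 1 NEXN-S437E array.

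The list of TNF and NF-kB target genes held 10 of the 19, from 21 tested, beside 10.1% of all genes lower. Of the 10, 2 (*Il1b* and *Mmp14*) passed the filter on detection through NEXN-WT alone. *Ccl5*, a T cell attracting chemokine that T and NK cells also make, read -0.77, 0.19 and -0.04 in NEXN-WT and -2.80, -3.14 and -3.09 in NEXN-S437E. The groups were far apart, and the difference was -2.80 (SE 0.25, limma adjusted p = 0.0116). The adjusted p was above 0.05 (0.0580 to 0.260) with no filter on dim probes, with the methods' t-test, with the replicate number or the slide row as a block, and without NEXN-WT replicate 2 or any 1 of the NEXN-S437E arrays. *Cxcl10*, an interferon-induced chemokine, differed by -2.24 (SE 0.32, adjusted p = 0.0764). *Bcl2a1d*, a survival gene with near-identical copies that a probe may not separate, differed by -1.27 (SE 0.29, adjusted p = 0.149). *Il1b*, the interleukin 1β gene, differed by -1.79 (SE 0.63, adjusted p = 0.241), with overlap between the groups and detection on 1 NEXN-S437E array. *Mmp14*, a membrane-bound matrix protease, was not detected in NEXN-S437E and was at least 2.37-fold lower there (adjusted p = 0.144).

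Of 19 tested adaptors and ubiquitin enzymes 3 were lower, of 17 NF-kB kinases and factors 4, of 6 genes of the cell death branch 1 and of 3 shedding proteases 1. Beside 10.1% of all genes these counts are read as no result about any single one of these lists. Their median differences were -0.23, -0.06, -0.24 and -0.24. The protease of the last list that was lower was *Adam17*, the enzyme that releases TNF from the membrane, at -0.57 (SE 0.23, adjusted p = 0.288), with overlap between the groups. It is named after its values were seen.

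**Figure D3:**
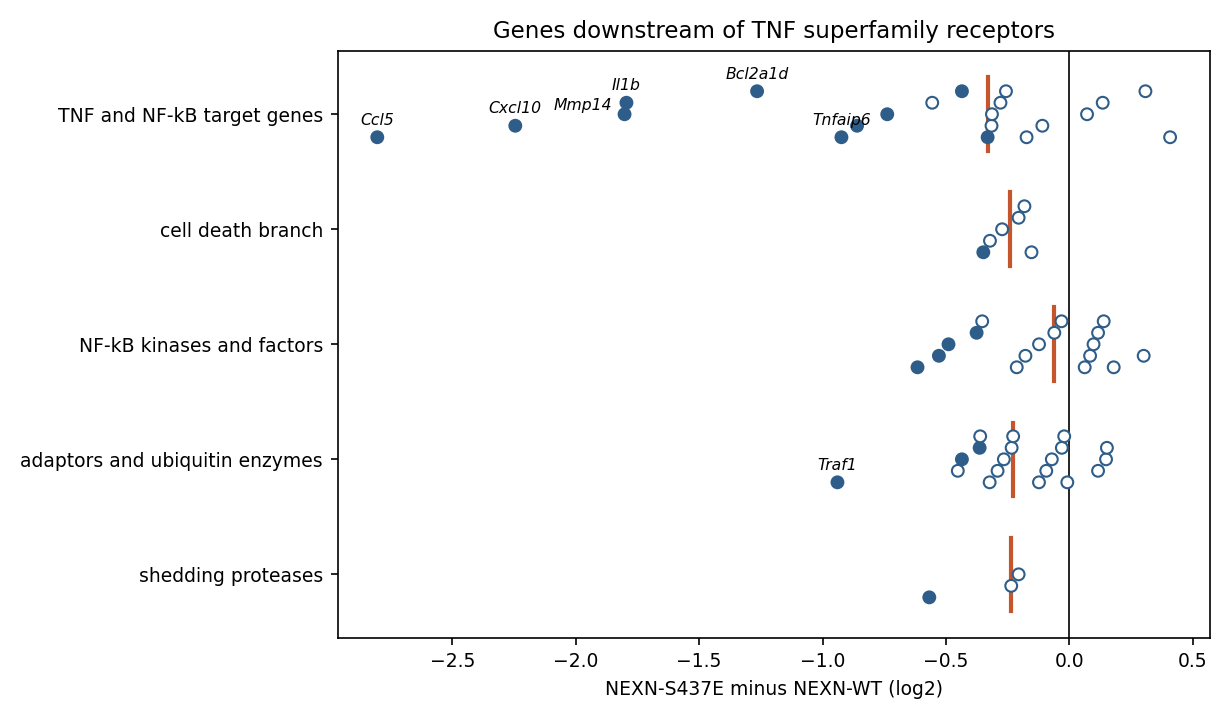
Difference between the groups (NEXN-S437E minus NEXN-WT, log2, horizontal axis) of each tested gene in the 5 pathway lists, 1 probe per gene; filled points have an unadjusted p under 0.05, the orange bar is the list's median, and genes below -0.9 with such a p are named. All 19 filled points lie below 0, and *Ccl5*, *Cxcl10*, *Il1b*, *Mmp14* and *Bcl2a1d* lie below -1.

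Markers of T cells and of NK and cytotoxic cells, which make several of these ligands, were lower in the same hearts as *Ltb* and *Ccl5*. Over all genes, 10.1% were lower and 7.8% higher at the unadjusted threshold, and 0.148% of all tested probes passed the adjusted one. The marker lists were chosen with earlier results of these data known, so their counts are descriptions. Of 10 tested T cell markers 8 were lower and 0 higher, and 4 passed the adjusted threshold. Of these, 4 of the 8 and 2 of the 4 had passed the filter on detection through NEXN-WT alone, which favours a lower call in this list and in the others where such markers are counted. The 8 became 5 with normexp, and the 4 became 0 with the methods' t-test or the slide row as a block, 1 with normexp, no filter or the replicate block, and 1 to 6 with an array left out (the lowest for replicate 2 and the highest for replicate 1 of NEXN-WT). *Trat1* was detected on no array. Of genes named after their values were seen, *Cd3d*, a chain of the T cell receptor complex, differed by -2.57 (SE 0.28, limma adjusted p = 0.0269), while *Cd4* differed by 0.14 (SE 0.15). The adjusted p of *Cd3d* was above 0.05 (0.0636 to 0.298) with no filter, with the methods' t-test and with the replicate number as a block. It was also above 0.05 in that range without NEXN-WT replicate 2 or 3 or NEXN-S437E replicate 3. With the slide row as a block *Cd3d* differed by -2.07. The summed scaled signal of the list was 1.45 to 2.12 in NEXN-WT and 1.29 to 1.71 in NEXN-S437E, so the sums overlapped. Most of this sum was the brightest marker, *Cd247*, at 0.781 to 1.17 and 1.01 to 1.38. The other 9, a sum made after the values were seen and given as a description, came to 0.671 to 0.946 and 0.280 to 0.324, with no overlap. All 5 tested markers of NK and cytotoxic cells were lower, 3 of them tested through NEXN-WT alone, with sums of 0.304 to 0.797 against 0.119 to 0.137 (2 were lower with normexp), and *Prf1*, *Ncr1* and *Klrb1c* were detected on no array. Of the 8 B cell markers 1 was tested and it was lower, though not past the threshold with normexp, and *Ms4a1*, *Cd79a* and *Pax5* were detected on no array. Of 4 tested plasma cell markers 3 were lower, 2 of them tested through NEXN-WT alone, with sums of 0.196 to 0.293 against 0.0941 to 0.116. That count was 1 with normexp, the methods' t-test or the slide row as a block, and *Mzb1* differed by 0.08. The part of these cells in the *Ltb* and *Ccl5* differences was not tested.

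Of the other cell types, 3 of 4 tested dendritic cell markers were lower, 2 of them tested through NEXN-WT alone, and 6 of 8 fibroblast markers, of which 0 were. Over all genes 10.1% were lower and 7.8% higher. The dendritic count was 1 with normexp or the slide row as a block. The summed fibroblast signal was 105 to 183 in NEXN-WT, highest in replicate 1, and 72.5 to 78.6 in NEXN-S437E. Markers of macrophages and monocytes (1 of 11 lower, 1 higher), neutrophils (0 of 3) and endothelial cells (0 of 7) showed no such shift. The neutrophil marker *S100a8* read -3.12 in NEXN-S437E replicate 1 and -6.08 and -5.49 in the others of that group. Without that array 1 of the 3 neutrophil markers was lower. Of the cardiomyocyte markers, 2 of 9 were higher (0 with quantile normalization, 7 with array weights). All 9 were tested, with a median difference of 0.34, and their summed signal was 356 to 436 in NEXN-WT and 488 to 521 in NEXN-S437E, with no overlap. The part of the fibroblast and cardiomyocyte signal in the members' differences was not tested.

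**Figure D4:**
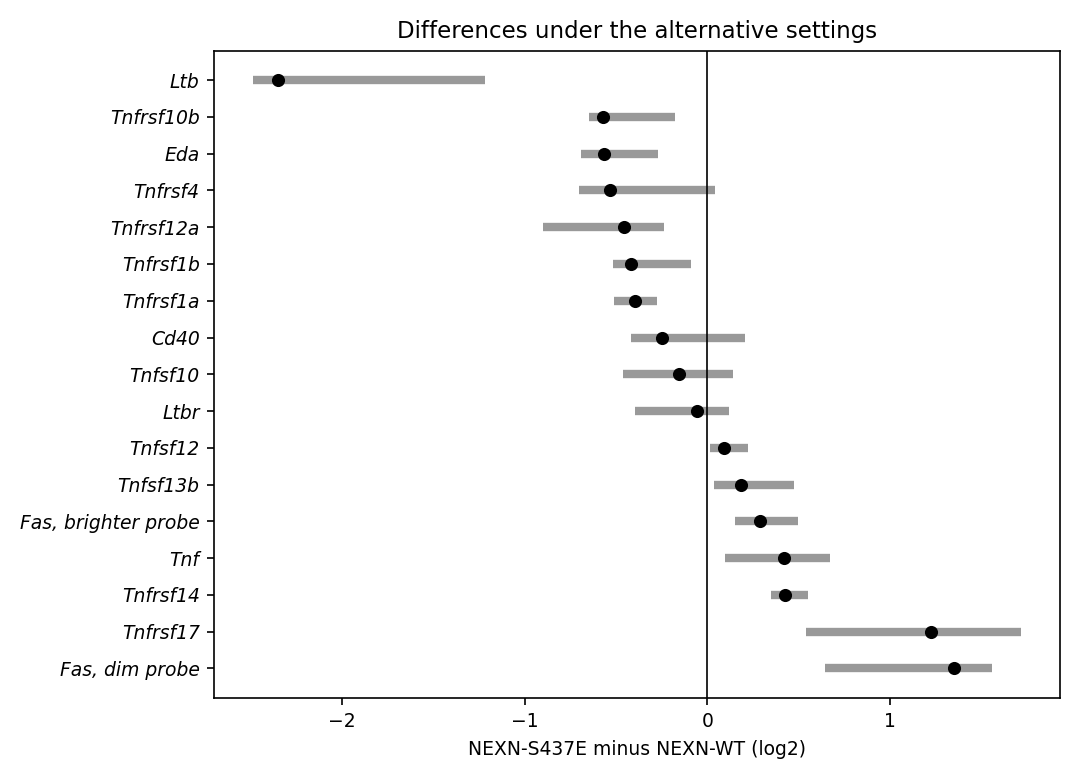
Difference between the groups (NEXN-S437E minus NEXN-WT, log2, horizontal axis) of the 17 tested member probes named by rule, as reported (black points) and over the alternative settings (grey bars from the lowest to the highest value). The bar of *Ltb* runs from -2.49 to -1.22, and those of *Tnfrsf4*, *Cd40*, *Tnfsf10* and *Ltbr* cross 0.

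The *Ltb* difference kept its direction and an unadjusted p of at most 0.000532 in each of 18 alternative settings, which included leaving out each array. Its adjusted p ran from 0.00146 to 0.255 over them. It was above 0.05 without NEXN-WT replicate 2 (0.0875) or NEXN-S437E replicate 3 (0.0559), with the slide row as a block (0.104), with the methods' t-test (0.255), with no filter on dim probes (0.0914) and with the replicate number as a block (0.0934). Within slide row 1 *Ltb* differed by -2.07. An exact permutation test of 3 against 3 arrays cannot give a p under 0.10.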

How the data were processed

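Total RNA from each heart was labelled with Cy3 and hybridised to an Agilent SurePrint G3 Mouse v2 array, 1 colour, all 6 on 1 slide and in 1 scan. The authors deposited, for each array, the intensity of every spot as Feature Extraction 10.7.1.1 wrote it, background-subtracted and not normalized between arrays. A further deposited table holds normalized log2 values. Its columns have identical distributions, and its method is not given in the sources used here. No column of the authors' own comparisons was used.

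From the processed signal, control and outlier spots were dropped, spots of a probe averaged, and each array's 75th percentile, taken over probes flagged well above background (detected) on all 6 arrays, subtracted on the log2 scale. Most spots of each array were not detected, hence that percentile. Probes detected on all 3 arrays of a group were fitted by lmFit and eBayes of limma 3.58.1 (R 4.3.3). Benjamini-Hochberg adjustment ran over all tested probes, and calls were made at an adjusted p of 0.05, and at 2-fold with an unadjusted p of 0.05 as in the study. The fit was tested on simulated data. Precision is limited by the number of arrays and by signal over background. Groups and replicates came from the sample titles, and the mice of a group are separate animals.

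Where several probes stood for a gene, the tested probe of highest mean led. All 45 member symbols matched RefSeq by gene ID. Full values were given for members past 2-fold, for genes whose lead probe had an unadjusted p under 0.05, and for 17 genes listed by name: *Tnf*, *Tnfrsf1a*, *Tnfrsf1b*, *Tnfsf10*, *Tnfrsf10b*, *Tnfsf11*, *Tnfrsf11b*, *Tnfsf12*, *Tnfrsf12a*, *Tnfsf13b*, *Tnfrsf13c*, *Fasl*, *Fas*, *Cd40lg*, *Cd40*, *Ltb* and *Ltbr*. Those with no tested probe were given by detection only. Of the pathway lists, the 5 largest changes past the unadjusted p in each direction were named. The members and lists were chosen with earlier results of these data known. Probes are on mm9, for which no genome was used here, so they were not placed in exons or introns. Promoters came from RefSeq (GRCm38.p6). Figures were drawn with Python 3.11.15, pandas 2.3.3 and matplotlib 3.10.9.

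The alternatives were the percentile over all probes, quantile normalization, normexp (offset 50), the authors' deposited log2 values, outlier spots kept, no filter and a filter on all 6 arrays, the methods' t-test, the replicate number or the slide row as a block, array weights, an intensity trend, and each array left out. The fit on the arrays of slide row 1, and the marker lists under each alternative, were chosen after seeing the data.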

Additional observations from a re-analysis of the deposited data

How the results depend on the processing

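Of 33 member probes, 3 were past 2-fold and the unadjusted threshold. This count was 1 with normexp, 7 with no filter on dim probes, 1 with a filter on all 6 arrays, and 2 to 3 with an array left out. The 1 call at the adjusted threshold became 0 with no filter, with the methods' t-test, with the slide row as a block and on slide row 1 alone, 7 with array weights, and 0 to 1 with an array left out. The 9 calls at the unadjusted threshold became 15 with no filter and 16 with array weights, and 6 to 13 with an array left out. They split into 4 higher and 5 lower, against 7 and 3 with normexp and 2 and 6 with the slide row as a block. The 19 pathway genes became 12 with normexp, 9 with the slide row as a block, 6 on slide row 1 alone (both set 1 NEXN-S437E array against NEXN-WT) and 11 to 18 with an array left out. Same-numbered arrays did not deviate together (correlations -0.15, -0.03 and -0.18). The sample titles state no pairing, and with 3 arrays per group these correlations cannot decide whether the numbers pair the mice. The replicate block gave 0 adjusted calls among the members (*Ltb* limma adjusted p = 0.0934) and 12 against 34 over all probes.

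The sign turned for 4 members below the thresholds or near them. *Ltbr* was 0.024 with the all-probe percentile, 0.020 with normexp, 0.095 with array weights, and -0.23 to 0.12 with an array left out, positive without NEXN-WT replicate 1 or NEXN-S437E replicate 1. *Tnfsf10* was 0.14 with array weights, *Cd40* 0.21 with normexp and *Tnfrsf4* 0.042 with normexp. The causes were not tested. Probes near background sat higher in NEXN-S437E after scaling: without the filter the median over all probes was 0.20, so values there have no order.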
